A study of Mus musculus with 2 samples.

Results

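Camk2a, Prkacb and Prkar1b are kinase genes of the calcium and cyclic AMP pathways of the synapse. Each was read here through 1 probe in the hippocampus of aged mice after surgery. The members were chosen by gene symbol from a sheet of mRNAs that the study had selected on the ratio of these same arrays, so that the fold changes below are a description and no finding. They are 3 genes with 3 probes, of 60930 non-control probes on the array and of 446 mRNA probes in the copy of the sheet used here, which is shortened. Whether the array carries other probes of these genes is not known from this copy, and such probes were not read. The samples were hippocampi of male C57 mice (C57BL/6 in the study's methods) aged 16 to 18 months. Surgery mice had the left kidney removed (unilateral nephrectomy) under ketamine and xylazine anaesthesia with ropivacaine at the incision, a model of postoperative cognitive dysfunction, and control mice received no specific treatment. Whether the control mice were anaesthetized is not given in the sources used here, and surgery and its drugs cannot be told apart. Tissue was taken on day 3, RNA from 3 mice of a group was pooled, and each pool was hybridized to 1 one-colour array. With 1 array a group there was no replicate, no test was run, and the spread between mice is unknown.

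Calcium that enters a postsynaptic neuron binds calmodulin, which activates calcium/calmodulin-dependent protein kinase II (CaMKII). Cyclic AMP binds the regulatory subunits of protein kinase A (PKA), which then release active catalytic subunits. Both kinases are known for their part in long-term potentiation and in hippocampal memory. Camk2a encodes the alpha subunit of CaMKII and is a marker of excitatory forebrain neurons. Prkacb encodes the beta catalytic subunit of PKA, and Prkar1b encodes the type I beta regulatory subunit, which is enriched in the nervous system.

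Each probe addresses 1 named transcript, and all 3 transcripts begin well inside their gene. Prkacb was measured by the probe for NM_001164199, on the minus strand of chromosome 3 from 146729579 to 146770693. Prkar1b was measured by the probe for NM_001253890, on the minus strand of chromosome 5 from 139017304 to 139130386. Camk2a was measured by the probe for NM_009792. Set beside the RefSeq gene spans of GRCm38.p6, the start of the listed transcript lay 42253 bases inside Prkacb, 38247 bases inside Camk2a and 20317 bases inside Prkar1b. The build of the sheet is not given in the sources used here, but 428 of the 440 transcripts found by accession lay wholly inside their gene in GRCm38.p6. A signal of these probes thus speaks for transcripts that hold the probed bases, and transcripts from the outer starts may lack them.

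Probe sequences are shown because they are the bases on which a value rests. The Prkacb probe is given whole, with an ATG at its first base in capitals, and the Prkar1b probe by its first 30 bases.
Prkacb probe: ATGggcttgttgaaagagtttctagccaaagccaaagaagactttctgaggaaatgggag
Prkar1b probe: ttcagggagctggtcagtgtagatagacga
The 60 bases of the Prkacb probe hold 20 codons in the frame of that ATG and 0 stop codons. Its listed positions run from 146757719 to 146770515, an interval of 12797 bases, so that the probe spans at least 1 intron of the gene. The first 39 bases of the Prkar1b probe were found in the RefSeq window around the listed start, from 139130375 down to 139130337, and in 1 promoter window of the 32851 in the table. The first of these bases lies 11 bases after the start, in the first exon. The sheet names uc012efp.1 as a transcript that the Prkar1b probe may also bind, and it names none for the others.

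All 3 probes lie at the 5′ end of their transcript. By the listed positions the probe began 3 bases after the transcript start for Prkar1b, 21 bases after it for Camk2a and 178 bases after it for Prkacb. For Prkar1b the listed interval of 55 bases is shorter than the probe, and the matched sequence puts its first base 11 bases after the start, not 3. Of the 446 mRNA probes, 101 (22.6%) began within 200 bases of the start, and the median distance along the genome was 6374.5 bases. A start at least 20000 bases inside the gene was found for 23 of the 428 transcripts, and the median distance over the 428 was 27 bases. Of the 428 probes, 12 (2.80%) had both features, the 3 genes included. These limits of 200 and 20000 bases were set after the positions of the 3 probes had been seen. The labels describe random priming along the whole transcript without a bias to the 3′ end.

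**Figure D1:**
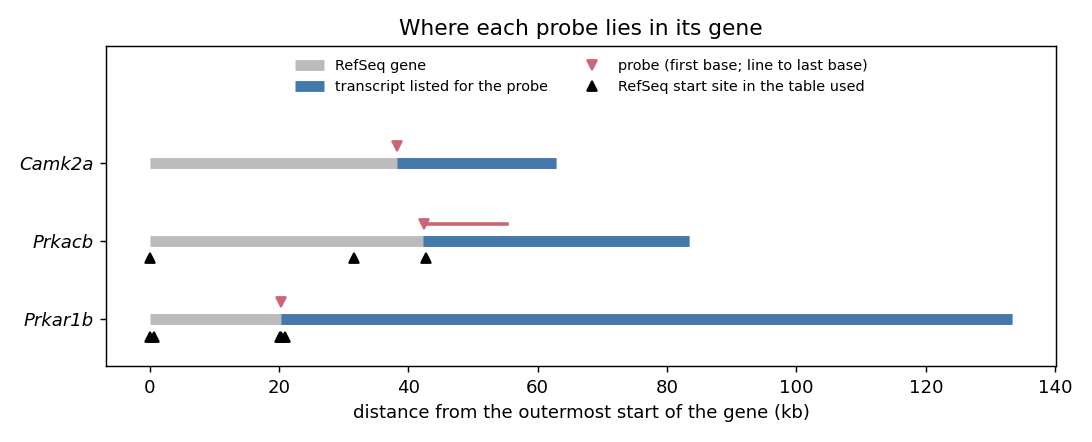
Position of each probe in its gene, as distance in kb from the outermost start of the RefSeq gene; grey is the part of the gene upstream of the listed transcript, blue the listed transcript, and black triangles the RefSeq starts in the table used, which has entries for Prkacb and Prkar1b. Each probe (red) sits at the start of a transcript that begins 20317 to 42253 bases inside the gene.

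RefSeq gives Prkar1b starts of different kinds, shown here because the probe follows an inner one. The listed start at 139130386 has a RefSeq entry, and another entry lies 91 bases further out at 139130477. The outermost start lies at 139150703. Below are the 250 bases before the outermost start (chr5:139150704-139150953, minus strand) and before the inner start at 139130477 (chr5:139130478-139130727, minus strand) in GRCm38.p6, with each CG pair in capitals.
Outermost start: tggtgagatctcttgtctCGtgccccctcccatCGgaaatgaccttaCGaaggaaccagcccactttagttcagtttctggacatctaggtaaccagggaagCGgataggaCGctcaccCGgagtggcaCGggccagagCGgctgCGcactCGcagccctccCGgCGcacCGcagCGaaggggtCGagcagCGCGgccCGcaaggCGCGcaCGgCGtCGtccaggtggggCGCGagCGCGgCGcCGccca
Inner start: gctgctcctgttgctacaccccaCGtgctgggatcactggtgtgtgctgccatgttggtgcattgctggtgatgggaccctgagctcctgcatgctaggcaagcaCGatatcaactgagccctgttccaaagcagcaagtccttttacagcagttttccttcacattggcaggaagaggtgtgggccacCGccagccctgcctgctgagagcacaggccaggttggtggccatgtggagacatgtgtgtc
The outermost window held 29 CG pairs and 67.2% GC, and the inner window held 3 CG pairs and 57.2% GC. The median over all 32851 windows was 6 pairs and 52.4% GC. A window with 3 pairs or fewer was found for 37.8% of the starts, and one with 29 or fewer for 94.1%. The other Prkar1b starts of the table, at 139150001, 139130386 and 139129752, had 16, 3 and 27 pairs, so that a start 634 bases after the listed one was again rich in CG pairs. For Prkacb there were 30 CG pairs before the outermost start at 146812946, 1 before the start at 146781416 and 5 before the start at 146770238. The last of these lies 455 bases downstream of the start that the sheet lists for the Prkacb probe. It is also downstream of the first listed base of the probe. The window before it thus lies inside the span of the listed transcript and is not the one before the listed start, which has no entry here.

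Signals are given as processed signals of Agilent Feature Extraction with the error it assigns to the spot, and ratios after quantile normalization between the arrays. Levels of different probes are not comparable. Each array carries 61500 spots besides the controls, and the median spot error of a log2 ratio was 0.21. A probe is called detected here where Feature Extraction found its spot positive, significant and well above background. Among the 44044 probes detected on both arrays, 1.47% had a signal at least 2-fold higher in the surgery pool, and for 1.95% it was at least 2-fold lower. Because the genes were selected on this ratio, their count at or past 2-fold (1 higher and 1 lower of the 2 measured on both arrays) is to be read only beside these shares and carries no evidence.

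The Camk2a transcript NM_009792 lies on chromosome 18 (plus strand), from 60963554 to 60988152, and its probe from 60963575 to 60963635. The Camk2a probe had a signal of 48.5 with an error of 6.03 on the control array. On the surgery array the signal was 111.4 with an error of 11.9. It speaks for this inner transcript, and whether that transcript encodes the whole alpha subunit of CaMKII was not checked. The surgery array was the higher one, and both spots were detected. The log2 ratio of surgery over control was 1.35 with an error of 0.24, or 2.54-fold higher. The median pixel of the spot went from 98.5 (control) to 156.5 (surgery), over a local background of 21 and 23. No spot of the 3 genes was saturated or marked as uneven on either array.

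The Prkacb probe had a signal of 265.6 with an error of 26.8 on the control array and of 94.7 with an error of 10.1 on the surgery array. It was the only one of the 3 with the higher signal on the control array, and both spots were detected. The log2 ratio was -1.33 with an error of 0.21, or 2.52-fold higher in the control pool. Its median pixel went from 325 (control) to 154 (surgery), over a local background of 22 on both.

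The Prkar1b probe had a control signal of 15.04 with an error of 3.70, and this spot was not well above background. Its surgery signal was 71.2 with an error of 9.84, and this spot was detected. The control group therefore has only a bound. After normalization the surgery signal was 74.8, and the lowest control signal well above background was 15.7. This gave a bound of 4.75-fold higher after surgery for Prkar1b, which leaves out the spot error. The plain log2 ratio was 2.36 with an error of 0.41. In other ways of processing the bound went down to 0.69 on the log2 scale. Of 60880 probes with an unmarked spot, 1.63% were well above background with surgery RNA only. Its median pixel went from 60 (control) to 109 (surgery), over a local background of 22 and 20.

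**Figure D2:**
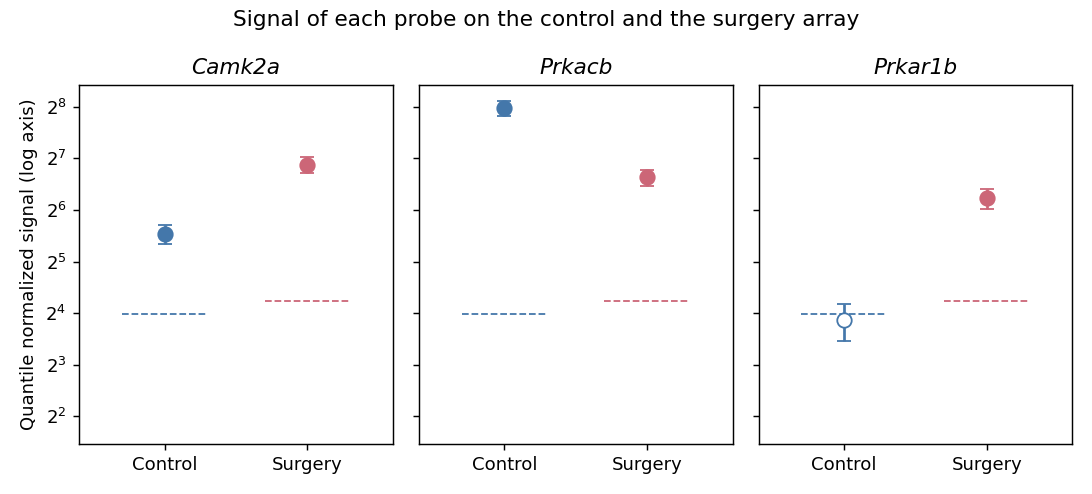
Quantile normalized signal (log axis) of the Camk2a, Prkacb and Prkar1b probes on the 1 control and the 1 surgery array; bars are the spot error of Feature Extraction, dashed lines the lowest signal well above background on each array, and the open circle a spot not well above background. Camk2a and Prkar1b were higher on the surgery array and Prkacb on the control array, and the control spot of Prkar1b lies at the dashed line of 15.7.

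The spot errors do not overlap between the arrays for any of the 3 genes, but this error covers the measurement of a single spot. As a second view of spot error, the 30 probes with 20 spots each were searched for mean signals from 32 to 512. Only 1 was found, with a mean of 91.1, between those of Camk2a (73.8) and Prkacb (157.8). Across its 20 spots the log2 ratio ran from 0.05 to 0.80 with an SD of 0.21, and 0 spots reached 2-fold. This probe was brighter than Prkar1b (normalized signals of 14.5 in control and 74.8 in surgery) and does not bear on that gene. Camk2a and Prkacb both lay between mean signals of 72.3 and 220.9, the quartile of detected probes next to the dimmest. In that quartile 1.92% of probes were at least 2-fold higher and 2.38% at least 2-fold lower.

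The size of all 3 changes depended on how the background of the spot was treated. With the median pixel, which still contains the background, the log2 ratio was 0.70 for Camk2a and -0.98 for Prkacb, and the bound for Prkar1b was 0.83. With the normexp correction and an offset of 50 they were 0.58, -0.92 and 0.69. This offset is added to both signals and by itself makes ratios of dim signals smaller in size. Each direction was the same as in the processed signal, and none of these values reached 2-fold. In the normalized values that the authors deposited, the log2 ratio was 1.14 for Camk2a, the nearest of the 3 to the 2-fold threshold, -1.36 for Prkacb and 1.37 for Prkar1b (1.31 as a bound).

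**Figure D3:**
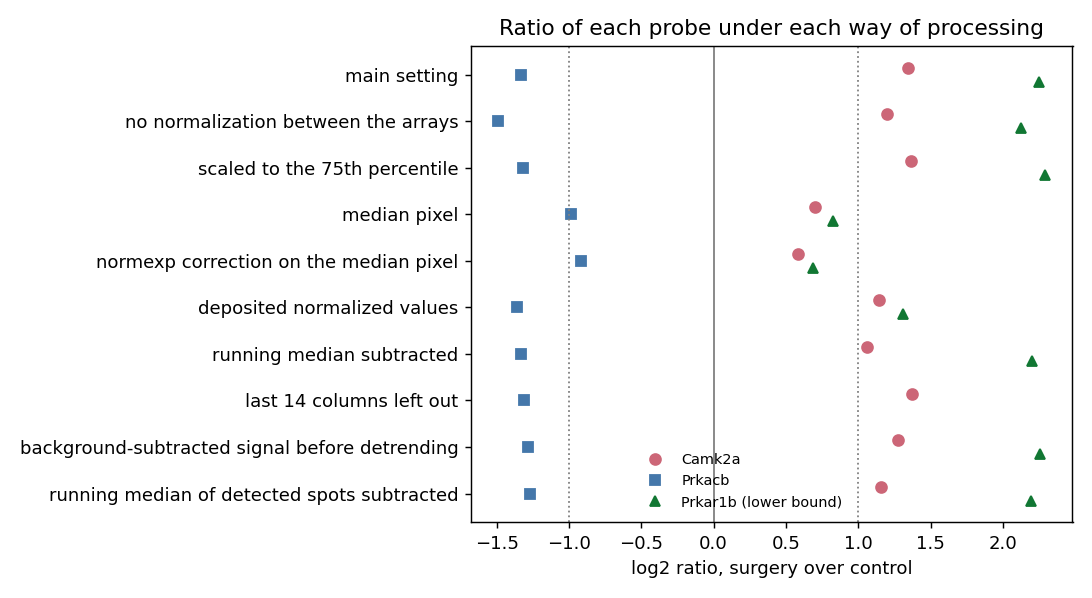
Log2 ratio of surgery over control of each probe under each way of processing, with dotted lines at 2-fold; Prkar1b is drawn as its lower bound and has no value without the last 14 columns, where it lies. Each gene kept its direction, and all 3 fell under 2-fold with the median pixel, as they did with normexp.

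The position on the array was examined because the share of higher probes differed between columns. Camk2a lay in row 342 and column 148, and Prkacb in row 69 and column 114. In columns 1 to 150, 0.797% of the probes detected on both arrays lay past 2-fold upwards and 1.83% past 2-fold downwards. In columns 141 to 150, which hold Camk2a, these shares were 1.33% and 2.59%. In columns 151 to 157 they were 5.70% and 3.18%, and in columns 158 to 164 they were 11.1% and 3.19%. Prkar1b lay in row 119 and column 154, within the last 14 columns, where 5.28% of probes were well above background with surgery RNA only.

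Around Camk2a, many unrelated spots were also higher on the surgery array. Of 54 unmarked spots within 5 rows and 2 columns, 14 (25.9%) had at least a 2-fold higher signal after surgery and 0 a 2-fold lower one, compared with 3.92% and 4.51% of all probes without a filter on dim signals. Of these 14 spots, 11 were dim on at least 1 array (not detected on both). The spots directly above and below Camk2a in its column were not well above background on either array, and their log2 ratios were 1.93 and 2.44. Among the 37 neighbours detected on both arrays, 3 reached 2-fold upwards, the median log2 ratio was 0.19, and the highest was 1.33, just under that of Camk2a. With the median of its surroundings subtracted, the log2 ratio of Camk2a was 1.06, and with the median of the detected neighbours it was 1.16. On the surgery array the width of the Camk2a spot was 18.2, against a median of 26.4, and 0.293% of the spots were as narrow or narrower. On the control array the width was 24.9, against a median of 26.7. The part of these features in the Camk2a ratio was not tested.

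Around Prkacb the spots were even. Of 53 spots, 0 were at least 2-fold higher and 1 was at least 2-fold lower, and the median log2 ratio was -0.00377. The 1 lower spot, in the same column, had a log2 ratio of -1.49. With the median of its surroundings subtracted the log2 ratio of Prkacb was -1.33, as without it.

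Around Prkar1b, 6 of 52 spots (11.5%) were at least 2-fold higher and 1 was at least 2-fold lower. Of the 36 spots there that were detected on both arrays, 1 reached 2-fold upwards, at 2.18 on the log2 scale, and the median was 0.05. Like Prkar1b, 6 of the 52 spots were well above background with surgery RNA only, 5 of which are among the 6 higher ones, and 0 with control RNA only. With the median of its surroundings subtracted the bound of Prkar1b was 2.20 on the log2 scale.

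**Figure D4:**
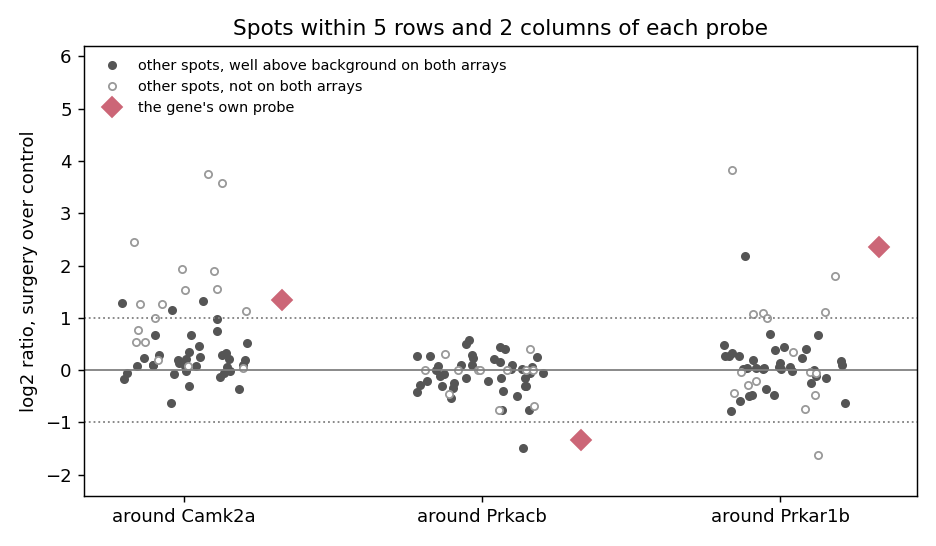
Log2 ratio of surgery over control for the unmarked spots within 5 rows and 2 columns of each probe (filled, detected on both arrays; open, not on both) and for the gene's own probe (diamond; for Prkar1b the plain ratio of both signals); dotted lines mark 2-fold. Around Camk2a 14 of 54 other spots were at least 2-fold higher, around Prkacb 0 of 53 and around Prkar1b 6 of 52.

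Other genes of both pathways were taken from lists, of which only the probes named in the mRNA sheet could be used. Since that sheet holds genes selected for a ratio of at least 2-fold, nearly all of them pass it, and the counts describe directions only. In the shortened copy, 356 mRNA probes were detected on both arrays, of which 177 (49.7%) were at least 2-fold higher and 159 (44.7%) at least 2-fold lower. The study's text gives more lower than higher mRNAs in its whole list. The split of the copy therefore need not be that of the list, and lower genes are the more frequent ones there. Of 35 genes of PKA and cyclic AMP signalling, 4 had a named mRNA probe. All 3 that were measured on both arrays were lower after surgery, with a median log2 ratio of -1.33 against 0.04 over all detected probes, a distance that the selection of the sheet fixes. Prkx, which encodes a catalytic kinase related to the PKA catalytic subunits, had a signal of 290.6 in the control pool and 116.5 in the surgery pool (log2 ratio -1.15, error 0.21). Pde2a, which encodes a phosphodiesterase that degrades cyclic nucleotides and is activated by cyclic GMP, gave 268.9 and 76.3 (log2 ratio -1.66) and lies in column 157. Prkar1b, the fourth, was the one of the list that was higher. By the median pixel 1 of the 3 reached 2-fold.

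Non-coding transcripts that the study assigned to genes of the same list went both ways. The sense-overlapping ENSMUST00000162882 of Pde8b had a log2 ratio of 1.11, and ENSMUST00000145643 of Crebl2, in column 163, had 1.01. AK048895, antisense in an intron of the anchoring protein gene Akap6 and in column 164, was above background with surgery RNA only, at signals of 15.1 and 64.8. The sense-overlapping uc007kvv.1 of Akap1, which also encodes a PKA anchoring protein, was above background with control RNA only, at signals of 62.0 and 10.96. Sense-overlapping transcripts share sequence with their gene, and their signal need not be separate from that of its mRNA.

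Of 32 genes of CaMKII, calcium signalling and the postsynaptic density, 5 had a named mRNA probe, and all were measured on both arrays. Higher after surgery with Camk2a were Strn (striatin, a calmodulin-binding scaffold), at 29.4 and 89.8 (log2 ratio 1.72), and Gria4 (an AMPA receptor subunit), at 70.8 and 137.9 (log2 ratio 1.11). Strn lies in column 164 and Gria4 in column 158, so that Camk2a was the only higher gene of the list outside the last 14 columns. Camk2a lies near them, in column 148, and 25.9% of the spots around it were at least 2-fold higher. The lower genes were Ppp3r1, the regulatory subunit of the phosphatase calcineurin, at 1079 and 465.9 (log2 ratio -1.07), and Chp1, a calcineurin-like calcium-binding protein, at 2867 and 1310.2 (log2 ratio -1.02). The sense-overlapping ENSMUST00000137585 of Chp1, in column 164, had a log2 ratio of 1.42. ENSMUST00000123687, which overlaps Dlg4, the gene of the scaffold PSD-95, gave 438.6 and 101.7 (log2 ratio -1.95). By the median pixel, 0 of the 3 higher mRNAs and 1 of the 2 lower ones reached 2-fold.

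Protein serine/threonine kinases, as annotated by Gene Ontology in the sheet, were represented by 16 probes of 15 genes. Of the 15 probes detected on both, 2 were at least 2-fold higher, 12 at least 2-fold lower and 1 changed less, with a median log2 ratio of -1.13. These counts are those of probes selected on the ratio, beside 1.47% higher and 1.95% lower among all detected probes. The highest were Zak at 1.65, in column 163, Camk2a at 1.35 and Vrk2 at 0.04, the 1 that changed less. The study's text gives Vrk2 as upregulated, whereas this probe had signals of 247.4 (control) and 226.5 (surgery). Whether the study's statement rests on another probe of Vrk2 was not checked. The lowest were Stk32c at -2.16, Ikbkb, a kinase of the NF-kappaB pathway, at -1.86, and the doublecortin-like kinase Dclk2 at -1.39, of which Ikbkb lies in column 163 and Dclk2 in column 156. Prkacb followed at -1.33. Camk2a was thus the only probe of these 15 that was at least 2-fold higher and lay outside the last 14 columns. It lies near them, in column 148, among many other higher spots. The Camk2a probe addresses an inner transcript, and whether that transcript encodes the kinase was not checked. By the median pixel 0 were at least 2-fold higher and 2 at least 2-fold lower.

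**Figure D5:**
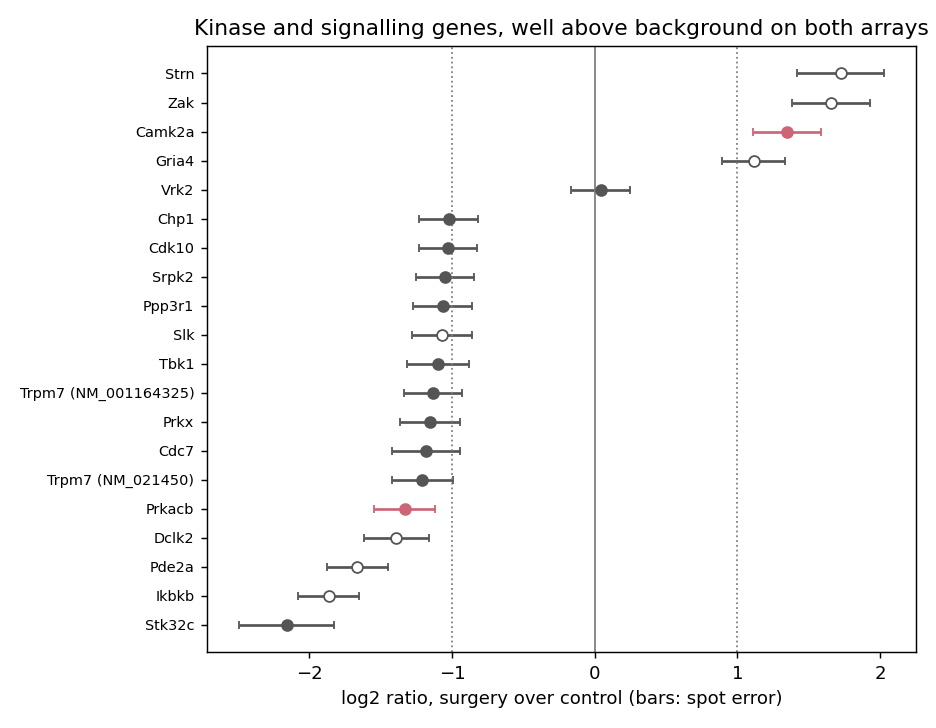
Log2 ratio of surgery over control, with the spot error as bars, of the mRNA probes of PKA and cyclic AMP signalling, CaMKII and the postsynaptic density, and serine/threonine kinases that were detected on both arrays; Camk2a and Prkacb are red, open circles lie in the last 14 columns, and dotted lines mark 2-fold. Most probes of the kinase list lie near the lower 2-fold line, and of the 4 probes past the upper line only Camk2a is filled. All come from a sheet selected on the ratio, so that crowding near the 2-fold lines follows from that selection. Camk2a lies in column 148, near the last 14 columns.

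The study's KEGG lists held at least 2 of the 3 genes in 7 pathways. Camk2a and Prkacb shared insulin secretion, amphetamine addiction, circadian entrainment, glucagon signaling, Wnt signaling and adrenergic signaling in cardiomyocytes, and Prkacb and Prkar1b shared insulin signaling. The study's text names that list under downregulated transcripts, but it also holds Prkar1b and Fbp2, whose probes read here were higher after surgery. Whether the study's entries rest on other probes of these genes was not checked. These pathways held 30 different genes reported here, of which 18 had a named probe in the shortened sheet. Of these, 15 were measured on both arrays, 6 at least 2-fold higher, 8 at least 2-fold lower and 1 changed less, again after selection on the ratio. Another 3 (Prkar1b, Wnt6 and Fxyd2) were well above background with surgery RNA only. The highest were Fbp2, a fructose bisphosphatase, at 2.65, Rapgef1 at 1.72 and the angiotensin receptor gene Agtr1b at 1.69, and of these Fbp2 and Rapgef1 lie in the last 14 columns. The lowest were Ikbkb, in the last 14 columns, Prkacb, and Gnb4, a G protein beta subunit, at -1.29.

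Markers of hippocampal cell types were read as far as the sheet names a probe, so that they too were selected on the ratio and their counts describe directions only. In pooled tissue, fewer cells of a type and less RNA per cell cannot be told apart. Camk2a was the 1 named probe of 5 markers of excitatory neurons, so that the cell type was not checked by other genes of that list. Its probe addresses a transcript that starts 38247 bases inside the gene. Whether this transcript marks excitatory neurons as the gene does was not tested. Of 10 general neuronal markers read here 5 had a probe. Nsg2 and Mal2 were past 2-fold downwards (log2 ratios -1.19 and -1.42), Pcsk1 had 0.99, Tbr1 was above background with control RNA only, and Elavl2 with surgery RNA only. The summed signal of these 5 probes was 10257 (control) and 4468 (surgery), most of it from Nsg2 (6736 and 2884) and Mal2 (3264 and 1143). The oligodendrocyte marker Tspan2 had signals of 306.2 and 137.6 (log2 ratio -0.99). The astrocyte marker Etnppl had 76.9 and 345.02 (log2 ratio 2.32), the endothelial marker Thbd 2895 and 7971, and the choroid plexus marker Clic6 1063 and 368.2 (log2 ratio -1.38). All 10 markers of meninges and arachnoid were at least 2-fold higher, from Foxc1 at 1.04 to Slc47a1 at 3.29. The share was 49.7% among the detected probes of the shortened sheet and 1.47% among all detected probes. All 10 genes of this list have a probe in the selected sheet, so that the count carries no evidence. Their summed signal was 24040 (control) and 65848 (surgery), most of it from Ptgds (16530 and 42242). None of these probes had a signal of 0. The direction of Prkacb was that of 2 of the 3 neuronal markers detected on both arrays, and the direction of Camk2a was opposite to it. The part of cell composition in either ratio was not tested.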

How the data were processed

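RNA from 3 hippocampi a group was hybridized to 1 one-colour Arraystar mouse lncRNA array a group. The authors deposited the spot intensities of Agilent Feature Extraction 11.0.1.1, whose processed signal had been background-subtracted and detrended per array, and a table of normalized values on the log2 scale. Quantile normalization in GeneSpring GX is stated for that table. The median of its control column was 4.78 and that of its surgery column 4.78, and its values differ from the log2 processed signals by a median of -1.78 over detected probes; the origin of this offset, and with it any centring, stays unknown.

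Here the log2 processed signals of 61500 non-control spots underwent quantile normalization across both arrays, with repeated spots averaged. Spots marked as non-uniform or as population outliers on either array were left out. A probe counted as detected if Feature Extraction found it positive, significant and well above background, and calls were made at 2-fold. The error of a log2 ratio combines the spot errors of both arrays. Where 1 array was not well above background, the brighter signal was divided by the higher of the dim signal and the lowest signal well above background on that array. The number of arrays limits the precision, and no p-value was computed.

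The members and lists were chosen with earlier results of these data known. Named genes are the 3 members, every measured gene of the first 2 lists, and the 3 highest and 3 lowest of the kinase and pathway lists. Markers, and pathway genes outside that rule, were chosen for naming after their values were seen. The values of 3 genes of these lists are not reported here and were left out of the counts and sums of the lists. Probe names, sequences and positions come from the study's supplementary sheets, whose fold change columns were not used. Promoter sequences are from RefSeq (GRCm38.p6), with entries for Prkacb and Prkar1b. The calculation was checked on simulated data, which does not bear on false calls in these arrays. Python 3.11.15, numpy 2.4.6, pandas 2.3.3 and matplotlib 3.10.9 were used, with R 4.3.3 and limma 3.58.1 for normexp. The methods state a repeated assay, and 1 array per group was analysed here.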

Additional observations from a re-analysis of the deposited data

How the results depend on the processing

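No ratio of the 3 genes changed direction under any alternative run. Camk2a lay between 0.58 and 1.37 in 9 alternatives and was at least 2-fold in 7 of them, Prkacb between -1.49 and -0.92 in 9 and at least 2-fold in 7, and the bound of Prkar1b between 0.69 and 2.29 in 8 and at least 2-fold in 6. A value was taken as moved when it shifted by more than the spot error. With the median pixel Camk2a was 0.70, Prkacb -0.98 and Prkar1b 0.83, and with the normexp correction 0.58, -0.92 and 0.69. The deposited normalized values gave 1.31 for Prkar1b, and the running median gave 1.06 for Camk2a. Leaving out the last 14 columns gives no value for Prkar1b. The cause was not tested, except for 2 features that hold by construction. The median pixel contains the background, and the normexp setting adds an offset of 50 to both signals. Either makes ratios of dim signals smaller in size. Of probes at least 2-fold higher (647) and lower (858), the median pixel left 210 and 243, normexp 174 and 190, and dropping the dimmest quartile 341 and 547. Without a filter on dim probes there were 2384 and 2748. Without normalization 1483 were lower, and without the last 14 columns 348 were higher. The mean pixel was not run, since that column was not used here, and normexp took the median pixel in its place. The signal before detrending and the running median of detected spots were chosen after seeing the data and moved no value beyond its spot error. No paired analysis was possible because each group has 1 array. Signals near background, as for Prkar1b on the control array, allow a bound only.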
